A study of Mus musculus with 12 samples.

Results

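Mouse embryonic stem cells that lack Nat1 and were grown with LIF were compared with wild-type cells grown in 2i+LIF, which sets a state that followed a mutation beside one that inhibitors produced. The arrays were taken by their sample titles, 3 of Nat1-null cells in LIF and 3 of wild-type cells in 2i+LIF, out of 12 in all, and every gene measured entered the comparison. The 2 groups differ in genotype and in medium at once, and both media held LIF. The other 6 arrays, 3 of wild-type cells in LIF and 3 of Nat1-null cells in 2i+LIF, entered the fit and show where a level lies relative to the other states. All cells were grown in standard medium on gelatin, with no feeder layer named, and total RNA was labelled with Cy3 for single-colour Agilent arrays. The labels do not give how the null allele was made, whether the null cells are 1 clone, the inhibitor doses or the time in medium. Nat1 is read here as the older symbol of Eif4g2 (also DAP5), not as the N-acetyltransferase gene that carries the symbol today. Eif4g2 encodes a relative of the scaffold eIF4G that supports translation of selected mRNAs without binding the cap-binding protein.

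LIF acts through its receptor and JAK kinases on STAT3, which keeps mouse embryonic stem cells self-renewing and raises factors such as Klf4 and Tfcp2l1. The 2i inhibitors block MEK, and with it ERK, and block GSK3, which otherwise holds beta-catenin low. ERK signalling switches on its own feedback inhibitors (Dusp and Spry genes) and ETS factors (Etv genes), and pushes stem cells out of the naive state, while beta-catenin relieves repression by Tcf7l1 and activates Wnt target genes. Known effects of 2i on these cells also include low Dnmt3 genes and loss of DNA methylation.

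Between 52.5% and 63.4% of gene-directed spots were well above background on the Nat1-null LIF arrays and between 56.3% and 62.7% on the wild-type 2i+LIF arrays. All levels are log2 values relative to the 75th percentile of the array, differences are Nat1-null LIF minus wild-type 2i+LIF with the standard error of the limma fit, and n is 3 arrays per group. The number of arrays limits the precision. The wild-type LIF arrays lay on slide 1, the wild-type 2i+LIF arrays on slide 2 and all Nat1-null arrays on slide 3, so genotype, medium and slide cannot be told apart here. Nat1-null LIF replicate 3 lay in the second row of its slide and had the lowest share of bright spots. Nat1-null LIF replicate 2 stood apart from the other two: among 2075 bright genes that differed at least 2-fold, it was the Nat1-null array closest to wild-type 2i+LIF for 1545 (74.5%). Between any 2 replicates, 20058 bright genes differed with an SD of 0.27 to 0.41 among the null arrays and 0.18 to 0.19 among the 2i arrays. Of the 8 embryonic stem cell markers, 8 were well above background on all wild-type 2i+LIF arrays and 7 on all Nat1-null LIF arrays, with Fut4 the exception. Some markers of other cell types were also well above background on all arrays of a group. In the order Nat1-null LIF and wild-type 2i+LIF, these were 5 and 6 of 10 fibroblast markers and 3 and 4 of 8 trophoblast markers. They were 4 and 4 of 6 contractile markers, 4 and 4 of 6 neural markers and 3 and 4 of 6 primitive endoderm markers. The fibroblast markers Postn and Lum and the trophoblast factors Cdx2 and Elf5 were not well above background in either group. In these bulk samples fewer cells of a type and less RNA per cell cannot be told apart.

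Of 24457 genes tested, 12676 (51.8%) passed limma at adjusted p below 0.05, 5248 (21.5%) higher and 7428 (30.4%) lower in Nat1-null LIF. By at least 2-fold, 1250 (5.11%) were higher and 2015 (8.24%) lower, together 3265 (13.3%). The groups did not overlap for 14381 genes (58.8%). Counts in the gene lists below stand against the shares of all genes called, 21.5% higher and 30.4% lower. Among the 15422 genes with a symbol, as list members have, the shares were 25.5% higher and 31.2% lower, together 56.8%. The median difference over all genes was -0.07. Without scaling between arrays that median moved to 0.35 and 83.7% of the called genes were higher, against 41.4% as reported, so the direction of small differences depends on the scaling. That alternative adds the same 0.42 to every difference. Normexp background correction, the other alternative that often mattered, draws dim values together, and its value is given beside genes that it moves by over 1.5 times, by example only among genes given as a bound. For orientation, 16306 genes (66.7%) passed for Nat1-null LIF against wild-type LIF and 15196 (62.1%) for wild-type 2i+LIF against wild-type LIF. These 2 comparisons share the wild-type LIF arrays, and values against wild-type LIF are given side by side without a test of their likeness.

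**Figure D1:**
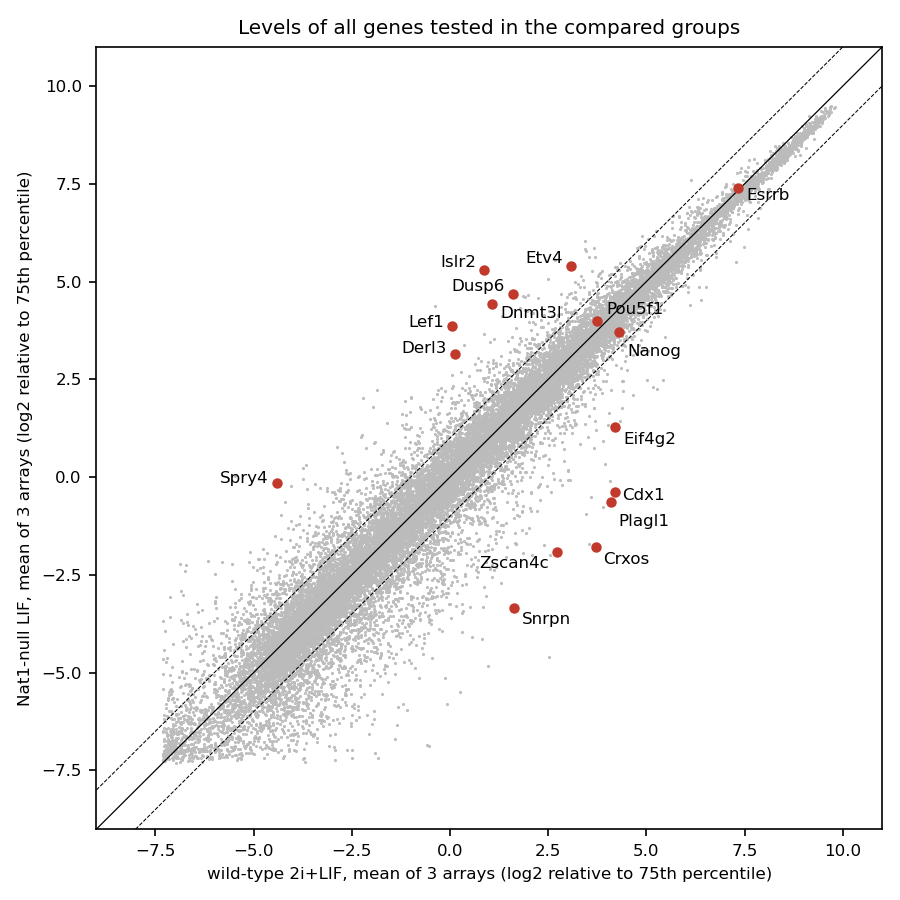
Mean level of each of 24457 genes in Nat1-null LIF (vertical axis) against wild-type 2i+LIF (horizontal axis), both log2 relative to the 75th percentile, with 3 arrays per mean, a solid line of equal level and dashed lines at 2-fold. Marked genes are among those described in the text: Spry4, Islr2, Lef1, Dusp6 and Derl3 lie above the lines, Cdx1, Plagl1, Zscan4c, Crxos and Snrpn below them, and Esrrb and Pou5f1 near the line of equal level.

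Eif4g2, the deleted gene by this reading of its name, was lower in the cells labelled null. It read 1.33, 1.26 and 1.23 on the Nat1-null LIF arrays and 4.23, 4.10 and 4.29 on the wild-type 2i+LIF arrays. The groups stood far apart, with every null array at a similar level and no overlap. The difference was -2.93 ± 0.07, a 7.63-fold lower level (limma adjusted p = 8.6e-09). The remaining signal was well above background, and where the probe lies relative to the deleted part is not given in the sources used here. Wild-type LIF had a mean of 4.49 and Nat1-null 2i+LIF of 1.30. The closest relatives differed little: Eif4g1, the canonical scaffold, at -0.13 (limma adjusted p = 0.3) and Eif4g3 at -0.44, a call that ended without scaling between arrays (-0.02, adjusted p = 0.89).

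Genes that report ERK activity were higher in the mutant state than in the inhibitor state. Of 16 ERK feedback inhibitors and ETS targets tested, 12 were higher in Nat1-null LIF and 0 lower, against 21.5% and 30.4% of all genes, and their median difference was 0.81 against -0.07 over all genes. All 16 differences were above 0 as reported, so none was lower at an unadjusted p under 0.05 either. With normexp background correction 12 were higher and 1 lower. Of the 16, 2 were not well above background on all 3 arrays of either group, and the 12 called were among the other 14. Against wild-type LIF the median of the same genes was 0.57 in Nat1-null LIF and -0.83 in wild-type 2i+LIF. Dusp6, a phosphatase that switches ERK off, read 4.79, 4.43 and 4.82 in Nat1-null LIF and 1.39, 1.84 and 1.56 in wild-type 2i+LIF. All null arrays lay above all 2i arrays, and the difference was 3.08 ± 0.16, or 8.45-fold (limma adjusted p = 4.1e-07). Relative to wild-type LIF, Dusp6 was at 0.49 in Nat1-null LIF and at -2.59 in wild-type 2i+LIF. Spry4, an inhibitor of receptor tyrosine kinase signalling, read 0.15, -0.74 and 0.14 in Nat1-null LIF and -4.67, -4.57 and -3.99 in wild-type 2i+LIF. Null replicate 2 was the lowest null array and still lay far above the 2i arrays, which were low but well above background. The difference of 4.27 ± 0.34 (limma adjusted p = 6.2e-06) became 2.91 with normexp background correction. Spry4 was on opposite sides of wild-type LIF, at 2.31 in Nat1-null LIF and -1.96 in wild-type 2i+LIF.

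The ETS factors Etv4 and Etv1 followed the same direction. Etv4 read 5.52, 5.19 and 5.47 in Nat1-null LIF and 3.01, 3.15 and 3.09 in wild-type 2i+LIF, with no overlap and a difference of 2.31 ± 0.10 (limma adjusted p = 1.8e-07). Wild-type 2i+LIF differed from wild-type LIF by only 0.08 for Etv4, whereas Nat1-null LIF was 2.39 above it. Etv1 read 3.77, 3.09 and 3.75 in Nat1-null LIF and 1.08, 1.19 and 1.08 in wild-type 2i+LIF. It was 5.36-fold higher (difference 2.42 ± 0.20, limma adjusted p = 7.3e-06), with 0.80 and -1.62 against wild-type LIF in the order null and 2i, and the mean of its probes gave 3.07. Other feedback genes were Spry2 at 1.69, Phlda1 at 1.17, Spred1 at 1.12 and Spred2 at 0.88. Of the 4 that did not pass, Dusp4 was at 0.31 and Etv5, bright in both states, at 0.18.

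Immediate early genes, the first transcripts after growth factor stimulation, were split. Of 17 tested, 5 were higher, 3 lower and 9 did not pass, with a median of 0.01. The share called, 47.1%, was below the 51.8% of all genes. Egr1, a zinc finger factor directly downstream of ERK, read -2.19, -2.00 and -2.09 in Nat1-null LIF and -4.59, -4.80 and -4.77 in wild-type 2i+LIF. Both groups were low, and in 2i only 2 of 3 arrays were well above background. Egr1 was higher by 2.63 ± 0.08 (limma adjusted p = 2.3e-08), or 1.05 with normexp, and both groups lay under the wild-type LIF mean of 1.06, at -3.16 and -5.78. Unlike Dusp6 and Etv4, Egr1 thus read below wild-type LIF in both groups. Myc read -0.13, -1.97 and 0.03 in Nat1-null LIF and -3.85, -3.22 and -3.79 in wild-type 2i+LIF, a difference of 2.93 ± 0.52 (limma adjusted p = 0.001) that was 3.57 without null replicate 2 and 1.96 with normexp. That array lay between the other null arrays and the 2i arrays. Junb and Srf (a partner of ETS factors) were higher by 2.04 and 1.00, Junb by 0.83 with normexp, and Fos did not pass at 0.60 (limma adjusted p = 0.081) with overlapping groups, though it did without null replicate 3 (0.83).

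Upstream of ERK, the FGF receptors went in both directions. Of 26 MAPK components, 11 were higher and 6 lower, with a median of 0.18. Fgfr3, an FGF receptor, read 1.83, 2.40 and 1.58 in Nat1-null LIF and -0.17, -0.34 and -0.19 in wild-type 2i+LIF. It was 4.49-fold higher (difference 2.17 ± 0.20, limma adjusted p = 1.5e-05), with no overlap. Fgfr4 went the other way at -1.31 ± 0.14 (limma adjusted p = 5.1e-05), and Fgfr1 and Fgfr2 were at -0.26 and -0.61, calls that the scaling decides. Map3k3, a kinase that feeds MAPK cascades, read 0.00, -0.21 and -0.17 in Nat1-null LIF and -1.17, -1.22 and -1.25 in 2i, and was higher by 1.09 ± 0.06 (limma adjusted p = 7.8e-07). Its mean in wild-type LIF, -0.33, lay close to the null level, and the 2i level was at -0.89 against it. Sos1, the exchange factor that activates Ras, did not pass at 0.75 ± 0.49 (limma adjusted p = 0.23), although its groups did not overlap, and it passed with the 6 arrays alone (adjusted p = 0.021) and without wild-type LIF replicate 2 (adjusted p = 0.0044). The ERK kinase Mapk3 was at -0.37, a call that turns without scaling (0.05, adjusted p = 0.48), and MEK1 (Map2k1) at 0.10 did not pass.

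Wnt target genes did not move as 1 group: Cdx1, Sp5 and Axin2 were lower in the null cells, while Lef1 was higher. Of 20 tested, 5 were higher and 8 lower, 7 of these at least 2-fold, around a median of 0.00. Without scaling 11 were higher and 7 lower, with a median of 0.43. Cdx1, a homeobox gene directly activated by beta-catenin, read -0.63, 0.11 and -0.60 in Nat1-null LIF and 4.23, 4.20 and 4.15 in wild-type 2i+LIF. The 2i arrays agreed within 0.08 of each other and lay far above every null array. The level was 23.7-fold lower in the null cells (difference -4.56 ± 0.18, limma adjusted p = 9.6e-08). Against wild-type LIF, Cdx1 was at 1.39 in Nat1-null LIF and 5.95 in wild-type 2i+LIF, and the mean of Nat1-null 2i+LIF was 5.04. Sp5, a transcription factor in the Wnt feedback loop, read -2.97, -2.71 and -3.20 in Nat1-null LIF and -0.66, -0.46 and -0.45 in wild-type 2i+LIF. It was lower, at -2.43 ± 0.26 (limma adjusted p = 4.2e-05), or -1.79 with normexp, on opposite sides of wild-type LIF (-0.91 and 1.53). Axin2, a destruction complex scaffold and feedback inhibitor, read -3.06, -3.83 and -3.60 in Nat1-null LIF and -2.07, -2.30 and -2.01 in wild-type 2i+LIF. Axin2 was lower, at -1.37 ± 0.22 (limma adjusted p = 0.00052), but wild-type 2i+LIF was at 0.02 against wild-type LIF, whereas Nat1-null LIF was at -1.35.

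Further Wnt targets lower in Nat1-null LIF were the feedback inhibitors Rnf43 (-2.33, or -1.02 with normexp, and well above background on 1 of 3 null arrays) and Nkd1 (-2.12, or -1.53 with normexp) and the receptor Tnfrsf19 (-1.93). Wif1, a secreted Wnt antagonist, was not well above background on any null array and read -2.44, -2.53 and -2.48 in 2i. It was at least 5.99-fold lower (limma adjusted p = 9.4e-07, difference -1.75 with normexp). For such genes the bright group is set against the lowest signal well above background on each dim array, or against the gene's own signal if that is higher. Lef1, a TCF-family factor that is both a Wnt target and an epiblast gene, went the other way and read 4.17, 3.44 and 3.96 in Nat1-null LIF and 0.03, 0.02 and 0.07 in wild-type 2i+LIF. It was 14.1-fold higher (difference 3.82 ± 0.25, limma adjusted p = 1.7e-06), above wild-type LIF in the null cells (1.56) and below it in 2i (-2.25). Tcf7, Notum, Apcdd1, Lgr5 and Znrf3 did not pass, with differences from -0.10 to 0.28.

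Among Wnt pathway components, 8 of 24 were higher and 6 lower, with a median of 0.00. Wls, the carrier that Wnt proteins need for secretion, read -4.64, -4.37 and -6.42 in Nat1-null LIF and -0.07, -0.11 and -0.19 in wild-type 2i+LIF. Null replicate 3 was the lowest and was not well above background, and the groups lay far apart. Wls was 32.4-fold lower (difference -5.02 ± 0.42, limma adjusted p = 8.8e-06), with -4.38 without null replicate 3 and -3.18 with normexp. Tcf7l1, the TCF factor that represses naive genes until beta-catenin removes it, read 3.46, 3.04 and 3.26 in Nat1-null LIF and 1.71, 1.63 and 1.69 in wild-type 2i+LIF. It was higher by 1.58 ± 0.13 (limma adjusted p = 8e-06), and the receptor Fzd5 by 1.89 ± 0.15. Fzd1 was lower at -1.46 ± 0.11 and Fzd2 at -1.22 (-0.54 as the mean of its probes), while Gsk3b and Gsk3a, the kinases that 2i inhibits, were at 0.45 and 0.37 and Ctnnb1 (beta-catenin) did not pass at 0.06.

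**Figure D2:**
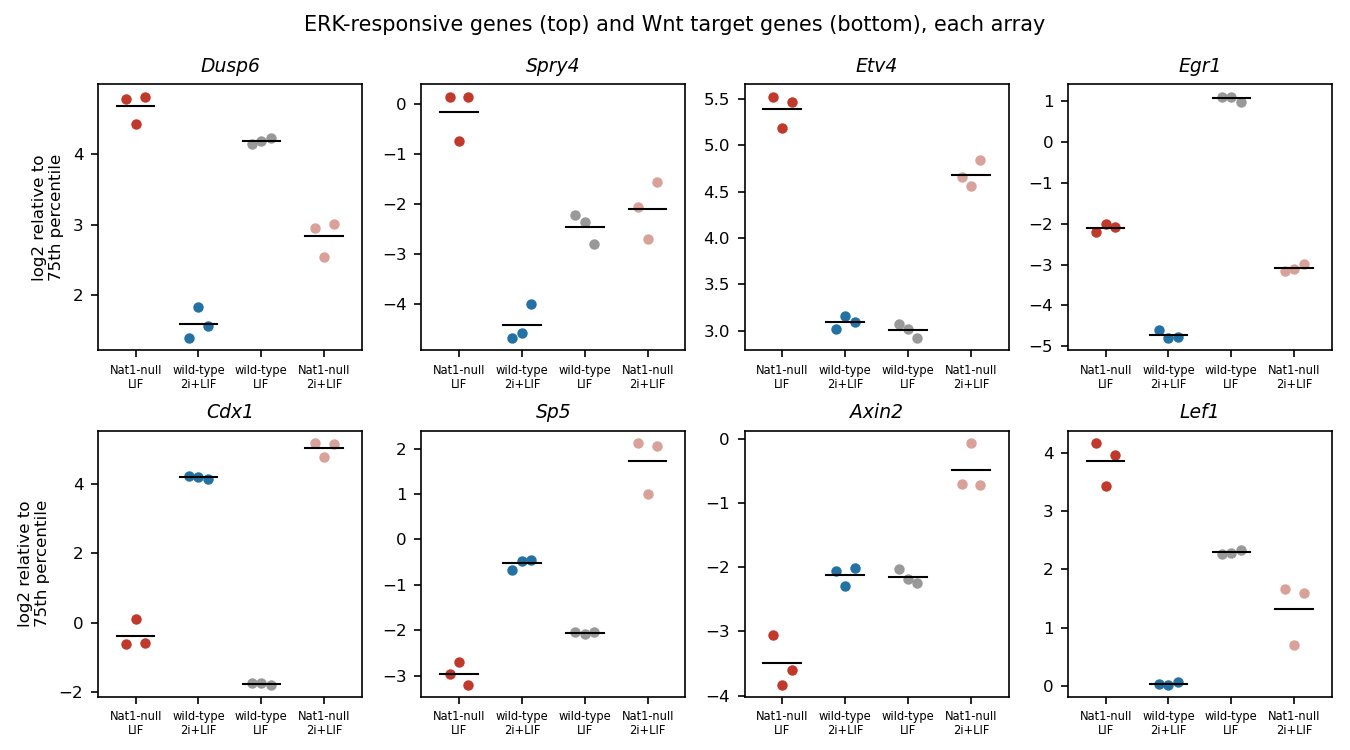
Log2 level relative to the 75th percentile (vertical axis) of 8 genes on each of 12 arrays, with 3 arrays per group as points and the group mean as a line. Dusp6, Spry4, Etv4, Egr1 and Lef1 are higher in Nat1-null LIF than in wild-type 2i+LIF, whereas Cdx1, Sp5 and Axin2 are lower, and the groups do not overlap for any of these 8 genes.

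The promoter of Sp5 is shown because it is 1 of 2 Wnt targets on the list with a TCF/LEF motif in the promoter window. The motif CTTTGAT was searched on both strands of 300 bases around each start site (250 before it and 50 after) and is in 3.73% of 32851 promoters. Of 15 Wnt targets with a promoter in the RefSeq table (GRCm38.p6), Sp5 and Tnfrsf19 held it, and both were lower in Nat1-null LIF. The 250 bases before the Sp5 start site lie at chr2:70474673-70474922 on the plus strand, with the motif in capitals.
Sp5: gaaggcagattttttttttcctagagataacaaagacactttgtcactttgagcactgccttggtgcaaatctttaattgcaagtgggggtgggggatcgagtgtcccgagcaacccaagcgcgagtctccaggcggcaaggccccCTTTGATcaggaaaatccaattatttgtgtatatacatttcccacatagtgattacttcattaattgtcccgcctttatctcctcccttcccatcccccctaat
This match describes letters in the window and does not show a site in use.

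LIF and STAT3 genes were higher in the null cells than in 2i. Of 19 tested, 12 were higher and 3 lower, with a median of 0.71, and their medians against wild-type LIF were 1.58 in Nat1-null LIF and 0.96 in wild-type 2i+LIF. Socs3, the feedback inhibitor of STAT3, read 5.95, 5.70 and 5.96 in Nat1-null LIF and 4.76, 4.73 and 4.78 in wild-type 2i+LIF. It was 2.16-fold higher (difference 1.11 ± 0.12, limma adjusted p = 4.7e-05), and both groups lay above wild-type LIF (2.79 and 1.68). Lifr, the ligand-binding receptor subunit, read 4.11, 3.69 and 4.07 in Nat1-null LIF and 2.48, 2.52 and 2.47 in wild-type 2i+LIF, a difference of 1.46 ± 0.12 (limma adjusted p = 9.4e-06). The shared subunit Il6st was at 0.54 and Stat3 itself at 0.26. Tfcp2l1 and Pim1 were lower at -0.85 and -0.51, so the genes of the pathway did not all go one way, and the Pim1 call ended without scaling (-0.09).

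Naive pluripotency genes separated the states by member. Of 20 tested, 11 were higher and 7 lower, with a median of 0.45. Against wild-type LIF their median was 1.43 in Nat1-null LIF and 1.29 in wild-type 2i+LIF. Klf4 read 5.98, 5.67 and 6.05 in Nat1-null LIF and 4.83, 4.87 and 4.87 in wild-type 2i+LIF, and was 2.06-fold higher (difference 1.04 ± 0.12, limma adjusted p = 6.9e-05). Klf5, a related Krüppel-like factor, read 5.07, 4.50 and 5.02 in Nat1-null LIF and 3.37, 3.47 and 3.37 in 2i, a difference of 1.46 ± 0.15 (limma adjusted p = 4.1e-05). Both factors had non-overlapping groups, with null replicate 2 the lowest null array. Tfcp2l1, a factor that LIF and 2i both raise, read 4.36, 4.46 and 4.43 in Nat1-null LIF and 5.28, 5.28 and 5.24 in wild-type 2i+LIF. It was lower in the null cells, at -0.85 ± 0.08 (limma adjusted p = 1.9e-05) although both groups were far above wild-type LIF (3.05 and 3.90). Nanog read 3.75, 3.70 and 3.68 in Nat1-null LIF and 4.31, 4.33 and 4.29 in wild-type 2i+LIF, a difference of -0.60 ± 0.06 (limma adjusted p = 2.3e-05). Without scaling the Nanog call ended (-0.18, adjusted p = 0.088), and its other probe gave 0.04. Klf2, another naive factor, was at -0.75, and at -0.32 without scaling, where it did not pass.

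Other naive factors included Esrrb, which did not pass, and Gbx2 and Dppa3, which went in opposite directions. Esrrb, an orphan nuclear receptor, read 7.52, 7.26 and 7.42 in Nat1-null LIF and 7.29, 7.38 and 7.36 in wild-type 2i+LIF, and the groups overlapped. Its difference of 0.05 ± 0.10 did not pass (limma adjusted p = 0.68), and it passed without scaling (0.47) and with quantile normalization (0.22). Both states held Esrrb above wild-type LIF, by 2.36 and 2.30. Prdm14, a repressor of FGF signalling and DNA methylation genes, was higher by 0.40 ± 0.07 (limma adjusted p = 0.00087) and Zfp42 (Rex1) by 0.50 ± 0.13. Gbx2, a homeobox gene under STAT3, read 3.14, 1.85 and 3.06 in Nat1-null LIF and 0.23, 0.39 and 0.20 in wild-type 2i+LIF. It was 5.32-fold higher (difference 2.41 ± 0.34, limma adjusted p = 0.00023), with null replicate 2 nearer to the 2i arrays. Dppa3, a maternal and germline factor that protects against DNA methylation, read -2.83, -2.89 and -3.01 in Nat1-null LIF and -0.22, -0.18 and -0.21 in wild-type 2i+LIF. It was 6.54-fold lower (difference -2.71 ± 0.10, limma adjusted p = 7.2e-08, -2.08 with normexp), and both lay below wild-type LIF (-6.69 and -3.98).

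General pluripotency factors were more often higher in the null cells. Of 20 tested, 14 were higher and 4 lower, with a median of 0.70. Pou5f1 (Oct4) read 4.08, 3.78 and 4.09 in Nat1-null LIF and 3.70, 3.71 and 3.82 in wild-type 2i+LIF, with overlapping groups and a difference of 0.24 ± 0.10 that did not pass (limma adjusted p = 0.059). It passed under 8 of the 25 alternatives, among them without null replicate 2 (0.34). Sox2, its partner factor, read 4.83, 4.61 and 4.78 in Nat1-null LIF and 3.58, 3.56 and 3.51 in wild-type 2i+LIF. Sox2 was 2.28-fold higher (difference 1.19 ± 0.07, limma adjusted p = 1.1e-06), and the groups did not overlap. Foxd3, a forkhead repressor needed at the exit from naive pluripotency, read 1.81, 0.39 and 1.93 in Nat1-null LIF and -1.78, -1.46 and -1.58 in wild-type 2i+LIF. It was 7.9-fold higher (difference 2.98 ± 0.36, limma adjusted p = 9.4e-05), with null replicate 2 lowest. The chromatin factor Utf1 was at 2.09, Tdgf1 (Cripto) at 1.19 and Sall4 at 0.81. Lin28b, an inhibitor of let-7 processing, was lower and read 0.59, 1.02 and 0.55 in Nat1-null LIF and 2.89, 2.93 and 2.85 in wild-type 2i+LIF, a difference of -2.17 ± 0.15 (limma adjusted p = 3.2e-06), whereas its relative Lin28a was at 0.66. Fut4 was lower, at -2.82 ± 0.31, or -1.20 with normexp, and was well above background on 1 of 3 null arrays.

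Epiblast genes were split as well. Of 17 formative and primed epiblast genes tested, 9 were higher and 5 lower, with a median of 0.81, and their medians against wild-type LIF were -1.49 in Nat1-null LIF and -2.25 in wild-type 2i+LIF. Otx2, which directs the move from naive to formative pluripotency, read 4.25, 4.15 and 4.08 in Nat1-null LIF and 2.35, 2.42 and 2.42 in wild-type 2i+LIF. It was 3.39-fold higher (difference 1.76 ± 0.07, limma adjusted p = 9.6e-08). Against wild-type LIF, Otx2 was at 0.03 in the null cells and -1.73 in 2i. Fgf5, a classical epiblast marker, read -3.84, -4.23 and -3.57 in Nat1-null LIF and was not well above background in 2i, at least 3.11-fold higher (limma adjusted p = 6.5e-05, difference 0.56 with normexp). Pou3f1 (Oct6) was at 1.17, the tight-junction gene Cldn6 at 1.69 (0.84 with normexp) and Zic2 at 0.81. Cdh2 (N-cadherin) read -3.08, -2.70 and -3.05 in Nat1-null LIF and -0.36, -0.50 and -0.41 in wild-type 2i+LIF, and was 5.73-fold lower (difference -2.52 ± 0.11, limma adjusted p = 1.3e-07). Sox3 and Sall2, both transcription factors, were lower, at -1.72 and -1.41.

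The DNA methyltransferase genes did not share a direction. Dnmt3l, the cofactor that stimulates de novo methylation, read 4.74, 3.98 and 4.58 in Nat1-null LIF and 0.96, 1.16 and 1.12 in wild-type 2i+LIF. It was 10.2-fold higher (difference 3.36 ± 0.17, limma adjusted p = 3.6e-07), with -1.22 and -4.58 against wild-type LIF for null and 2i. Dnmt3a, a de novo enzyme, read -0.46, -0.01 and -0.88 in Nat1-null LIF and 1.04, 0.85 and 0.87 in wild-type 2i+LIF, and was lower, at -1.37 ± 0.18 (limma adjusted p = 0.00014). Dnmt3b read 3.69, 3.28 and 3.73 in Nat1-null LIF and 3.04, 3.41 and 3.19 in 2i, overlapped, and did not pass at 0.35 ± 0.14 (limma adjusted p = 0.065). Both states held Dnmt3b below wild-type LIF, at -2.21 and -2.56, and the test passed under 7 alternatives, among them without null replicate 2. Uhrf1, which recruits the maintenance enzyme, was at -0.32 (0.11 without scaling), Dnmt1 did not pass at 0.00, and the oxidases Tet1 and Tet2 were higher by 0.42 and 0.76. In the list of 18 genes, 5 were higher and 3 lower, 44.4% called against 51.8% of all genes. Of 28 Polycomb genes, 7 were higher and 6 lower, and the share called, 46.4%, was likewise below that of all genes. Jarid2 and Aebp2, cofactors of the H3K27 methyltransferase, were at 1.24 and 1.15 and the Ring1B-binding protein gene Yaf2 at -1.69.

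**Figure D3:**
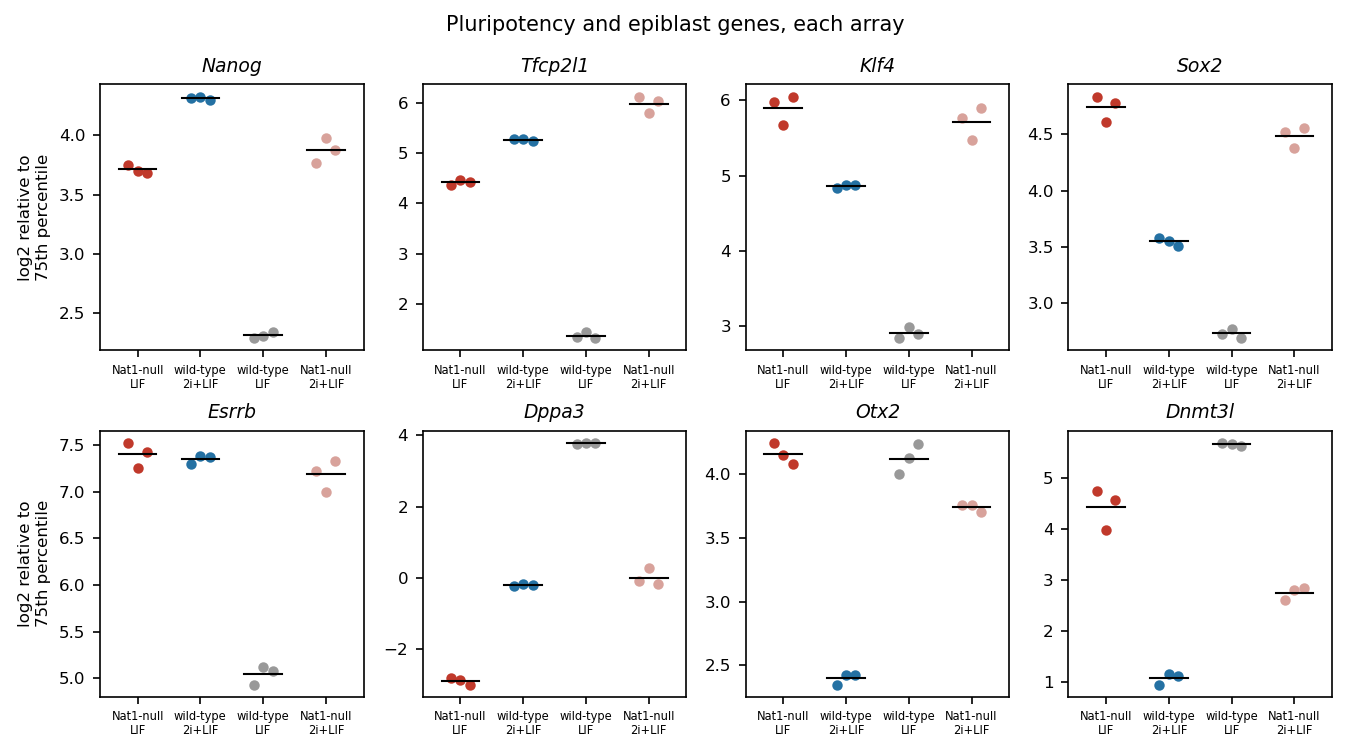
Log2 level relative to the 75th percentile (vertical axis) of 8 pluripotency and epiblast genes on each of 12 arrays, with points for arrays and lines for means of 3. Klf4, Sox2, Otx2 and Dnmt3l are higher in Nat1-null LIF than in wild-type 2i+LIF, Nanog, Tfcp2l1 and Dppa3 are lower, and the Esrrb arrays overlap.

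Genes of the 2-cell embryo, which mark a rare totipotent-like state in stem cell cultures, were lower in the null cells. Of 18 tested of 23 listed, 1 was higher and 15 lower, all 15 of them at least 2-fold, with a median of -2.61. Their medians against wild-type LIF were -5.09 in Nat1-null LIF and -1.51 in wild-type 2i+LIF. Zscan4c, a telomere-linked zinc finger gene, read -1.89, -1.95 and -1.90 in Nat1-null LIF and 2.69, 2.79 and 2.67 in wild-type 2i+LIF. The replicates of each group agreed closely and the level was 24.8-fold lower (difference -4.63 ± 0.07, limma adjusted p = 7e-10). Zscan4f read -0.15, 0.09 and -0.25 in Nat1-null LIF and 4.06, 4.09 and 4.11 in wild-type 2i+LIF, and Zscan4a was lower, at -4.53. These Zscan4 genes are near-identical copies, so which copy a probe reads is uncertain, and the list counts take each as a separate gene. Usp17la, a deubiquitinase gene of the same state, read -4.02, -2.81 and -4.01 in Nat1-null LIF and -0.01, 0.09 and 0.00 in wild-type 2i+LIF. It was lower, at -3.64 ± 0.33 (limma adjusted p = 1.5e-05), or -2.65 with normexp and -1.99 as the mean of its probes. Pramel6 was not well above background on any null array and had a mean of -1.40 in 2i, at least 11.8-fold lower (limma adjusted p = 5e-05, difference -1.92 with normexp). Tcstv1 and Tcstv3, which lengthen telomeres in these cells, were lower, at -2.22 and -2.14, or -0.88 and -1.02 with normexp. Zfp352 was the exception at 1.86, a value of its brightest probe that the mean of its probes did not give (0.14), and Eif1a and Sp110 did not pass.

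The start regions of Zscan4c and Zscan4f are printed to show how alike the copies are. Over the 277 bases that the RefSeq promoter windows (GRCm38.p6) share at an offset of 23, 275 bases (99.3%) were identical. The 250 bases before the start site lie at chr7:11005495-11005744 on the plus strand for Zscan4c and at chr7:11397665-11397914 on the plus strand for Zscan4f.
Zscan4c: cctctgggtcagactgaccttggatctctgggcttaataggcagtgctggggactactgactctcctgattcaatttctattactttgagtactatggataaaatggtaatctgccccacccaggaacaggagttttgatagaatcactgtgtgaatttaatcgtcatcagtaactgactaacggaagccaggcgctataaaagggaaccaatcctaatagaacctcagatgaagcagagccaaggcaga
Zscan4f: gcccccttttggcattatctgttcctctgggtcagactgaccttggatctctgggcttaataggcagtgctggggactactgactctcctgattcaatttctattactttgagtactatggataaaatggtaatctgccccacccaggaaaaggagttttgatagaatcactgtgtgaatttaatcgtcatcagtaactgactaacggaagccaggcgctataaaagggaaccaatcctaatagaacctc

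Imprinted genes, which are expressed from 1 parental allele, held some of the largest differences. Of 28 tested, 6 were higher and 15 lower, 10 of these at least 2-fold, with a median of -0.59. Without scaling 9 were higher and 12 lower, with a median of -0.17. Against wild-type LIF the median was -2.95 in Nat1-null LIF and -1.37 in wild-type 2i+LIF. Snrpn, a paternally expressed splicing factor gene, read -3.31, -2.84 and -3.88 in Nat1-null LIF and 1.68, 1.51 and 1.68 in wild-type 2i+LIF. It was 31.2-fold lower (difference -4.96 ± 0.24, limma adjusted p = 3.2e-07, -4.04 with normexp, -4.32 as the mean of its probes), and Nat1-null 2i+LIF was as low with a mean of -3.32. Kcnq1ot1, a paternally expressed noncoding RNA that silences its neighbours, read -4.51, -3.38 and -4.52 in Nat1-null LIF and 0.92, 0.76 and 0.76 in wild-type 2i+LIF. It was lower, at -4.95 ± 0.29 (limma adjusted p = 8.5e-07), or -3.59 with normexp, and was also low in Nat1-null 2i+LIF at -3.05. Plagl1, a zinc finger growth regulator, read -0.90, -0.35 and -0.66 in Nat1-null LIF and 4.12, 4.09 and 4.06 in wild-type 2i+LIF, a 26.4-fold lower level (difference -4.72 ± 0.13, limma adjusted p = 1.3e-08). Unlike Snrpn, Plagl1 was high in Nat1-null 2i+LIF with a mean of 4.87, and its 4 probes disagreed, from -4.72 to 0.02 with a mean of -2.43. Mirg, a noncoding RNA of the Dlk1 cluster, read -5.00, -1.87 and -5.09 in Nat1-null LIF and -0.68, -0.41 and -0.62 in wild-type 2i+LIF. Null replicate 2 lay well above the other null arrays, and the difference of -3.42 ± 0.69 (limma adjusted p = 0.0022) was -4.48 without it and -2.18 with normexp. Dlk1 and Usp29 were not well above background on any null array and were at least 7.75-fold and 3.22-fold lower. Their differences of -3.25 and -3.38 were -1.63 and -1.13 with normexp, and Dlk1 was at -2.46 as the mean of its probes. Grb10 and H19 were lower, at -1.95 and -1.67 (H19 at -1.03 with normexp). Nnat, a small membrane protein gene, was higher by 2.58 (1.78 with normexp). Of other imprinted genes in the Snrpn cluster, Ndn and Magel2 did not pass at -0.35 and 0.13 and Mkrn3 was higher by 0.43.

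**Figure D4:**
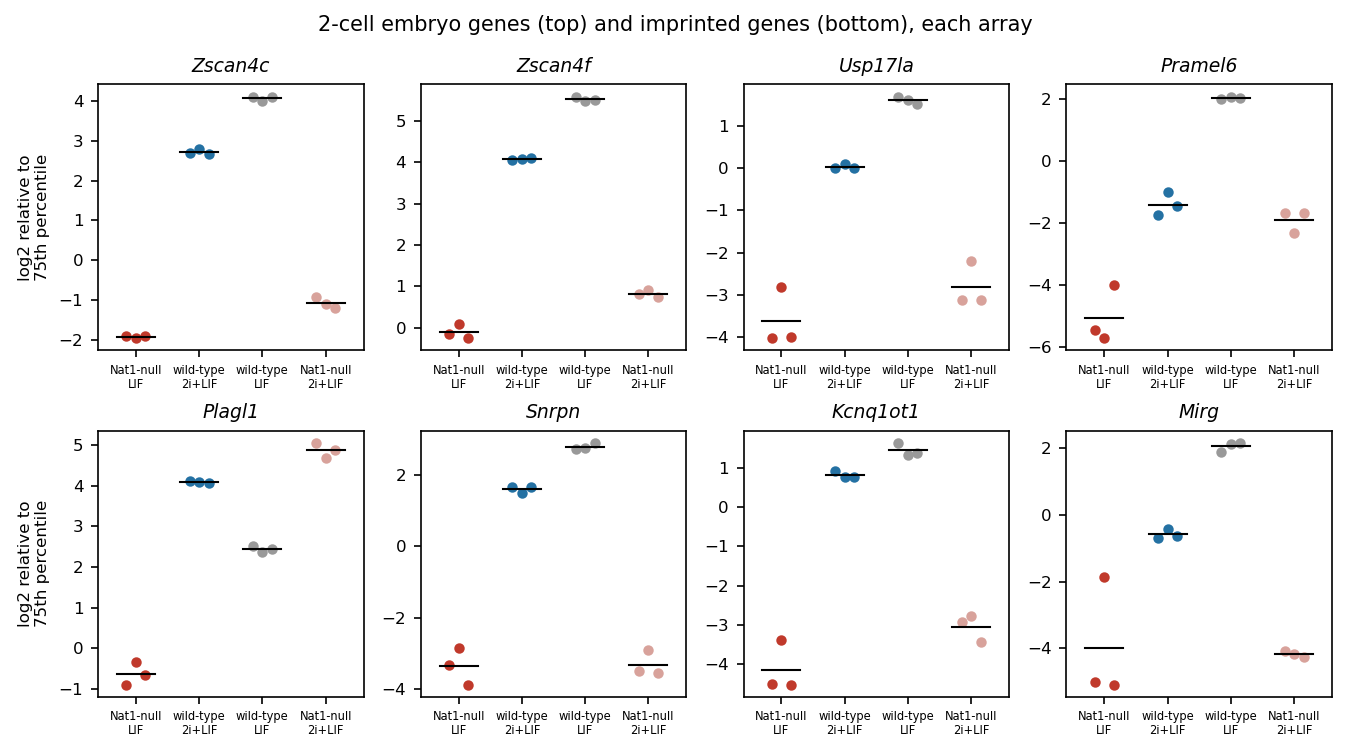
Log2 level relative to the 75th percentile (vertical axis) of 4 genes of the 2-cell embryo and 4 imprinted genes on each of 12 arrays, with points for arrays and lines for means of 3. All 8 are lower in Nat1-null LIF than in wild-type 2i+LIF without overlap, Snrpn is as low in Nat1-null 2i+LIF, and Plagl1 is high there.

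Germline genes, many of which are silenced by promoter methylation, differed member by member. Of 23 tested, 2 were higher and 12 lower, with a median of -0.59. Without scaling the counts were 6 higher and 5 lower, with a median of -0.17, so which direction held more genes depends on the scaling. Tdrd12, of the piRNA pathway, read -2.99, -2.85 and -3.06 in Nat1-null LIF and -0.12, -0.07 and -0.08 in wild-type 2i+LIF. It was 7.34-fold lower (difference -2.87 ± 0.07, limma adjusted p = 8.6e-09, -2.13 with normexp). Rhox5, an X-linked homeobox gene, read 2.44, 4.11 and 3.15 in Nat1-null LIF and 4.97, 5.10 and 5.02 in 2i and was lower, at -1.80 ± 0.36 (limma adjusted p = 0.0022). Null replicate 2 was closest to the 2i arrays for Rhox5. Tex19.1 and Tex101 were lower, at -1.21 and -1.13, and 9 genes of the list did not pass.

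Nodal, BMP and TGF-beta genes were higher in the null cells for 11 of 18 tested and lower for 4, with a median of 0.61. Among ligands, Bmp4 read 4.44, 3.82 and 4.36 in Nat1-null LIF and 1.96, 2.13 and 2.08 in wild-type 2i+LIF, 4.43-fold higher (difference 2.15 ± 0.18, limma adjusted p = 1e-05). The activin subunit Inhbb read 6.20, 5.74 and 6.20 in Nat1-null LIF and 3.31, 3.61 and 3.43 in 2i, a difference of 2.59 ± 0.16 (limma adjusted p = 1.1e-06). Bmp4 in 2i was at -0.06 against wild-type LIF, whereas Inhbb was above wild-type LIF in both states (5.55 and 2.96). The BMP target Id1, an inhibitor of helix-loop-helix factors, read 2.48, 2.16 and 2.56 in Nat1-null LIF and 0.23, 0.58 and 0.41 in wild-type 2i+LIF, and was higher by 1.99 ± 0.17 (limma adjusted p = 9.4e-06). Id2 and Id3 were higher by 1.01 and 1.53, though the Id3 call ended without null replicate 1, null replicate 3 or wild-type 2i+LIF replicate 1 (adjusted p up to 0.065). Smad7, a feedback inhibitor, was at 1.40. Nodal was at -0.51 as reported and -0.09 without scaling, where it did not pass, and its antagonists Lefty1 and Lefty2 did not pass at -0.17 and -0.19.

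The unfolded protein response, which raises chaperones of the endoplasmic reticulum, was higher in the null cells for 13 of 21 genes and lower for 3, with a median of 0.65. Derl3, a subunit of the channel that removes misfolded proteins, read 3.12, 3.15 and 3.16 in Nat1-null LIF and 0.08, 0.21 and 0.10 in wild-type 2i+LIF. Replicates agreed within each group and the level was 8.06-fold higher (difference 3.01 ± 0.07, limma adjusted p = 8.6e-09). Against wild-type LIF, Derl3 was at 2.50 in Nat1-null LIF and -0.51 in wild-type 2i+LIF. The sensor Atf6 and the factor Xbp1 were higher by 1.01 ± 0.12 and 0.96 ± 0.13, and Herpud1, Hyou1 and Sdf2l1 by 1.07, 0.93 and 0.93. The chief chaperone Hspa5 (BiP) was higher by 0.56, but Hsp90b1 (GRP94) and Canx (calnexin) were lower, at -0.43 and -0.15, calls that ended under 1 and 18 of the 25 alternatives. Creld2 and Dnajc3, a secreted chaperone and an inhibitor of the PERK kinase, were at 0.76 and 0.65.

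The ER stress response element is shown for 4 of these genes, which are those that hold it and were higher. Searched as CCAAT, 9 bases of any kind and CCACG on both strands, it was in 39 of 32851 promoter windows (0.119%) and in 8 of 17 list genes with a promoter in the RefSeq table. Of those 8 genes, Derl3, Creld2, Dnajc3 and Hspa5 were higher, Canx and Hsp90b1 lower, and Calr and Pdia6 did not pass. The 250 bases before the start site (GRCm38.p6) lie at chr10:75893148-75893397 on the plus strand for Derl3, chr15:88819396-88819645 on the plus strand for Creld2, chr14:118937682-118937931 on the plus strand for Dnajc3 and chr2:34771840-34772089 on the plus strand for Hspa5. Capitals mark the fixed letters of the element, which reads in reverse in Derl3 and Creld2.
Derl3: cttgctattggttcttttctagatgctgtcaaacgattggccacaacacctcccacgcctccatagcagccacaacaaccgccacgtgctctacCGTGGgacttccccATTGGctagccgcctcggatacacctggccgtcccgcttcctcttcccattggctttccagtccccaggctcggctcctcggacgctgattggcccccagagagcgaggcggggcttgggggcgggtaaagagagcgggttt
Creld2: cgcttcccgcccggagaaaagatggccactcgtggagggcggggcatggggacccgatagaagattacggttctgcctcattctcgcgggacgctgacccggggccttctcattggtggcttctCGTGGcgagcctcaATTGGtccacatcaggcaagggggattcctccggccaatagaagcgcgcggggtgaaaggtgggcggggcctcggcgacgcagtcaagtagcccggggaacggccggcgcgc
Dnajc3: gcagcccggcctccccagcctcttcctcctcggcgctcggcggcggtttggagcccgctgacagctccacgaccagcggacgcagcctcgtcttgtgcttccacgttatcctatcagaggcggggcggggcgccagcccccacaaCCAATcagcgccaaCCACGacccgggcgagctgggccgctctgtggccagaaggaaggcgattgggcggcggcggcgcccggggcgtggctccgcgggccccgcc
Hspa5: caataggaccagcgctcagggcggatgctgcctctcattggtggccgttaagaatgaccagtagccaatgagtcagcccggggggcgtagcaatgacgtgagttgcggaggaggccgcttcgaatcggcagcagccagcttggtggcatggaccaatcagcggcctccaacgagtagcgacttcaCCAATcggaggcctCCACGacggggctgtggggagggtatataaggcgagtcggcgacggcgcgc
The match is a description of letters, and genes that hold it were found in both directions and among those that did not pass.

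Genes of the integrated stress response, which acts through the factor ATF4 when translation initiation is limited, were higher for 12 of 24 tested and lower for 3, with a median of 0.29. Atf4 read 7.69, 7.38 and 7.76 in Nat1-null LIF and 6.11, 6.28 and 6.06 in wild-type 2i+LIF, 2.75-fold higher (difference 1.46 ± 0.12, limma adjusted p = 6.9e-06). It was above wild-type LIF in the null cells (0.80) and below it in 2i (-0.66). Chac1, a glutathione-degrading enzyme induced by ATF4, read 3.16, 2.87 and 2.98 in Nat1-null LIF and 1.14, 1.19 and 0.97 in wild-type 2i+LIF. It was 3.74-fold higher (difference 1.90 ± 0.09, limma adjusted p = 2e-07), and the 2i level was at -1.74 against wild-type LIF. Ppp1r15a (GADD34), which reverses eIF2 phosphorylation, was higher by 1.12 ± 0.08 and Trib3 by 0.73. Among the lower genes, Phgdh, the first enzyme of serine synthesis, read 2.38, 2.81 and 2.18 in Nat1-null LIF and 3.89, 3.86 and 3.94 in wild-type 2i+LIF, a difference of -1.44 ± 0.17 (limma adjusted p = 9e-05). Asns was at -0.61 as reported and -0.19 without scaling, where it did not pass, and Ddit3 (CHOP) did not pass at -0.13. The C/EBP-ATF core TGATGNAA, in 3.97% of promoter windows on either strand, was in 7 of 24 list genes with a promoter, of which 6 were tested: 3 higher, 2 lower and 1 not called. Chac1 carries it in reverse in the 250 bases before its start site, at chr2:119350992-119351241 on the plus strand (GRCm38.p6), with the fixed letters in capitals.
Chac1: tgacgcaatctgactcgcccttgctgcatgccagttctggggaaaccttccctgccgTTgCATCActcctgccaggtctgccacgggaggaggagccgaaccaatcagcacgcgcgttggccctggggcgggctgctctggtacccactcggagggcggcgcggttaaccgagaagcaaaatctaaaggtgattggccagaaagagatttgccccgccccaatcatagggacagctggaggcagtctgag

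Translation initiation factors were lower more often than higher, but by small amounts apart from Eif4g2. In the eIF4F list 1 of 17 genes was higher and 9 lower, with a median of -0.25, and in the other initiation factors 2 of 28 were higher and 12 lower, with a median of -0.13. Without scaling these medians were 0.18 and 0.30, so their direction depends on the scaling. The eIF4F list counts Eif4g2 itself, at -2.93 its only member called lower by at least 2-fold. Eif4b, a helicase cofactor, was lower, at -0.64 ± 0.05 (limma adjusted p = 4.4e-06), and stayed a call without scaling at -0.22. Eif2b3, a subunit of the exchange factor for eIF2, was lower, at -0.60 ± 0.05 and Eif4ebp1, a brake on cap-dependent translation, at -0.54 ± 0.06, the latter not without scaling (-0.12, adjusted p = 0.13). Eif6, another factor of that list, was higher by 0.59 ± 0.09.

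Targets of p53 were lower for 14 of 24 and higher for 3, with a median of -0.35 that was 0.07 without scaling. Cdkn1a (p21), an inhibitor of cyclin-dependent kinases, read 2.13, 2.31 and 2.03 in Nat1-null LIF and 3.94, 3.86 and 3.84 in wild-type 2i+LIF. It was 3.3-fold lower (difference -1.72 ± 0.07, limma adjusted p = 1.3e-07) by its brighter probe, while the other probe gave 0.51. Plk2 and the death receptor genes Fas and Tnfrsf10b were lower, at -1.32, -1.05 and -0.83. Among cell cycle genes, Mycn read 4.37, 3.93 and 4.40 in Nat1-null LIF and 2.97, 3.04 and 3.05 in wild-type 2i+LIF, higher by 1.21 ± 0.12 (limma adjusted p = 2.9e-05). The D-type cyclin Ccnd2 was higher by 1.48 ± 0.17 (0.86 with normexp) and Ccnd1 by 0.60, and the inhibitor Cdkn1b was higher by 0.90 as well. The mitotic genes Ccnb1 and Cdk1 did not pass at -0.08 and -0.05.

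The medians of the metabolic lists lay between -0.28 and -0.02. Glycolysis had 7 genes higher and 7 lower of 24, with a median of -0.02, and the same genes had medians of 1.11 and 1.16 against wild-type LIF in the null cells and in 2i. Pdk1, which turns pyruvate away from mitochondria, was higher by 1.12 ± 0.09 and Eno3 by 1.13 ± 0.13, while Pfkm, a phosphofructokinase, was lower, at -1.21 ± 0.11. Hypoxia response genes had 4 higher and 4 lower of 19, 42.1% called against 51.8% of all genes. Epas1 (HIF-2 alpha) read 5.21, 4.75 and 5.22 in Nat1-null LIF and 2.46, 2.57 and 2.44 in wild-type 2i+LIF, higher by 2.57 ± 0.13 (limma adjusted p = 4.2e-07) by its brightest probe, and its 3 probes ranged from -0.21 to 2.57. Oxidative phosphorylation had 13 of 30 genes lower and 2 higher, with a median of -0.13 that was 0.29 without scaling. Cox4i1 and Uqcrb, respiratory chain subunits, were lower, at -0.41 and -0.33 as reported and at 0.01 and 0.09 without scaling. Cholesterol synthesis had 13 of 25 genes lower and 1 higher, with a median of -0.28 that was 0.14 without scaling.

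**Figure D5:**
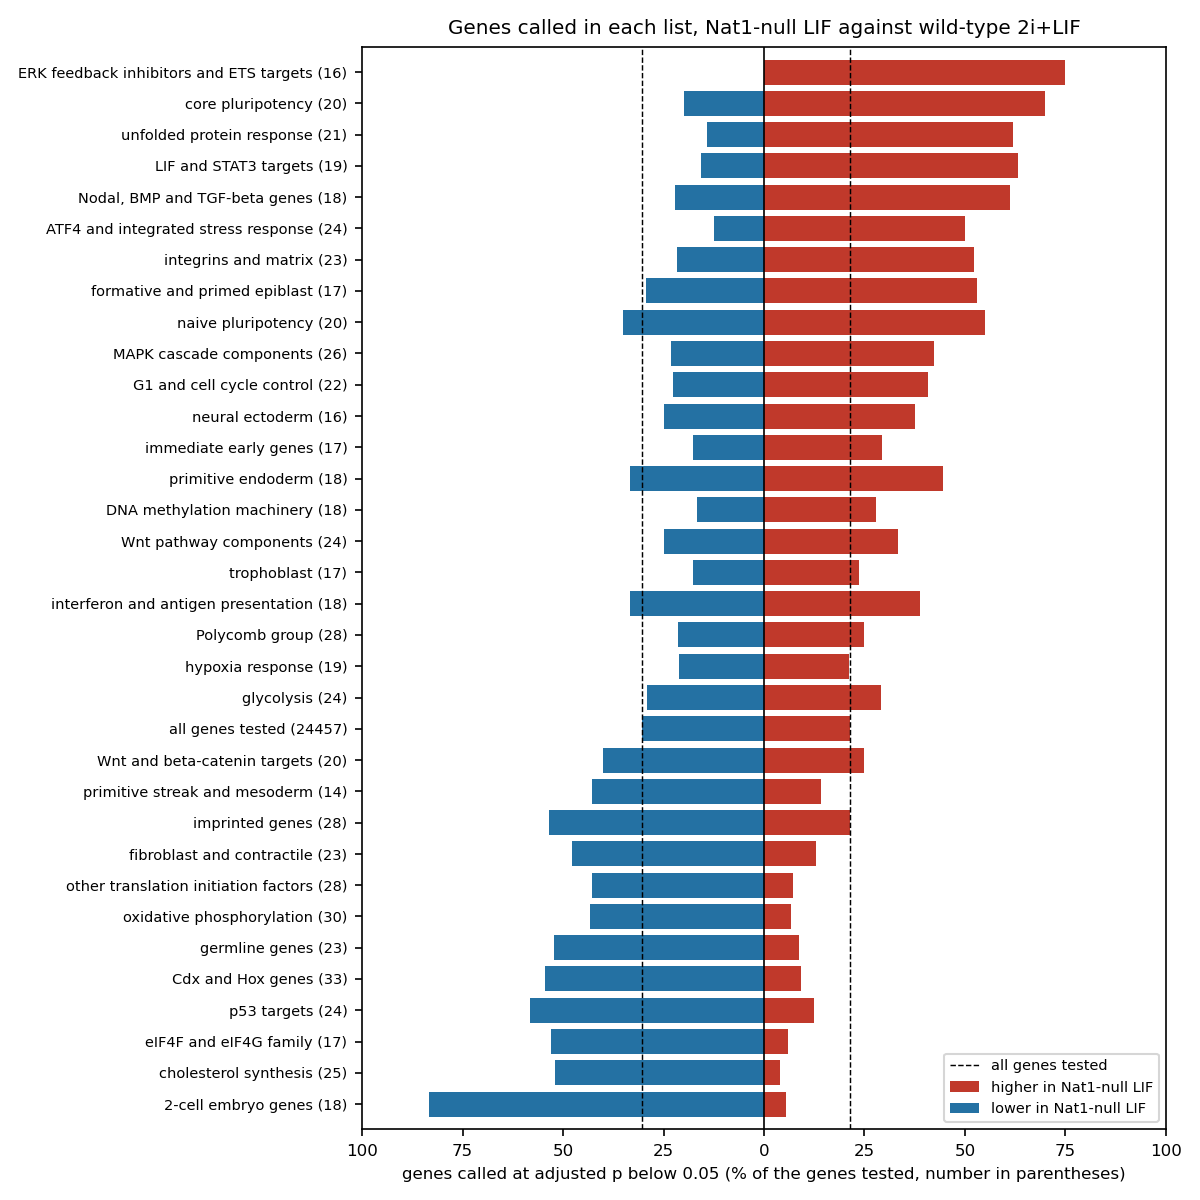
Share of genes called higher (right, red) and lower (left, blue) in Nat1-null LIF than in wild-type 2i+LIF at limma adjusted p below 0.05, for each of 33 gene lists and for all genes, with the number of genes tested in parentheses. Dashed lines mark the shares over all 24457 genes, 21.5% higher and 30.4% lower: ERK feedback genes have the largest share higher (12 of 16) and 2-cell embryo genes the largest share lower (15 of 18) among these lists. The 2-cell embryo count takes near-identical Zscan4 copies as separate genes.

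Posterior patterning genes were more often lower than higher in the null cells. Of 33 Cdx and Hox genes tested of 41 listed, 3 were higher and 18 lower, with a median of -0.59 and of -0.17 without scaling. The counts were 7 higher and 13 lower without scaling, and 0 and 22 with normexp. Of the 33, 6 were not well above background on all 3 arrays of either group. Among the other 27, 1 was higher and 17 lower. Hoxa7 read -0.94, -0.71 and -0.78 in Nat1-null LIF and 1.09, 1.10 and 1.09 in wild-type 2i+LIF. It was 3.74-fold lower (difference -1.90 ± 0.07, limma adjusted p = 6.6e-08), with the null level near wild-type LIF (0.30) and the 2i level above it (2.21). Hoxa10 and Hoxc6 were lower, at -1.47 and -1.35 (Hoxc6 at -0.66 with normexp). In the B cluster Hoxb9 was lower, at -0.93, and Hoxb5 was at least 1.81-fold higher, a call that ended with normexp (0.23, adjusted p = 0.32).

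Markers of other lineages differed member by member. Primitive endoderm had 8 genes higher and 6 lower of 18. Gata6, a founding factor of that lineage that ERK promotes, read 0.88, 1.87 and 0.85 in Nat1-null LIF and -0.22, -0.51 and -0.34 in wild-type 2i+LIF, higher by 1.56 ± 0.35 (limma adjusted p = 0.0041), with null replicate 2 the highest. Sox17 and Hnf4a were lower, at -1.14 and -2.62 (Hnf4a at -2.01 with normexp), and the Foxa2 value of -0.88 was no longer a call without scaling (-0.46). Sox7, another endoderm factor, was at least 3.25-fold higher, its level in 2i being not well above background (difference 2.72, or 0.53 with normexp). The matrix genes of this lineage, Col4a1, Col4a2, Lama1 and Sparc, were higher by 1.02, 0.85, 0.89 and 0.77. In the trophoblast list 4 of 17 were higher and 3 lower. Gata2 was higher by 1.86 ± 0.14 and Krt18 by 0.63 ± 0.10, while Tfap2c, a factor shared by trophoblast and germline, read 2.50, 2.39 and 2.47 in Nat1-null LIF and 4.41, 4.29 and 4.44 in wild-type 2i+LIF, lower, at -1.93 ± 0.07 (limma adjusted p = 6.7e-08). Neural genes had 6 higher and 4 lower of 16, with Pax6 at 2.10 ± 0.15 (0.75 with normexp) and the neural filament Nes at -1.42. Primitive streak genes had 2 higher and 6 lower of 14 tested, and without scaling 4 were higher and 1 lower, with a median of 0.28. Gsc, an organizer factor, was lower, at -0.80.

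Fibroblast and contractile genes were lower in the null cells for 11 of 23 and higher for 3, with a median of -0.34 that was 0.08 without scaling. Both states were far below wild-type LIF, with medians of -4.45 in Nat1-null LIF and -3.88 in wild-type 2i+LIF. Acta2, smooth muscle actin, read -3.03, -3.66 and -3.28 in Nat1-null LIF and -1.84, -1.55 and -1.87 in wild-type 2i+LIF, lower, at -1.57 ± 0.22 (limma adjusted p = 0.00021), against a wild-type LIF mean of 6.30. The summed level of the fibroblast markers ranged from -0.45 to 0.33 in Nat1-null LIF, from 1.04 to 1.20 in wild-type 2i+LIF and from 5.85 to 6.10 in wild-type LIF. That of the 6 contractile markers was not lower in the null cells. It ranged from 2.85 to 3.19 in Nat1-null LIF, from 2.80 to 2.94 in wild-type 2i+LIF and from 8.25 to 8.33 in wild-type LIF. Of these contractile markers, 1 was called higher and 2 lower. The part of either marker set in other differences was not tested. Pdgfrb, a receptor of mesenchymal cells, was lower, at -2.15 ± 0.27 and the intermediate filament Vim at -1.17.

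Cell surface and matrix genes were higher for 12 of 23 and lower for 5, with a median of 0.41. Itga9, an integrin alpha chain, read 2.31, 1.55 and 2.30 in Nat1-null LIF and -0.37, -0.07 and -0.15 in wild-type 2i+LIF, 4.75-fold higher (difference 2.25 ± 0.27, limma adjusted p = 8.9e-05). The laminin receptor chains Itga3 and Itga7 were higher by 2.46 ± 0.13 and 2.43 ± 0.20, or 1.83 and 1.84 with normexp. The common beta chain Itgb1 was lower, at -0.85. Itga8 was lower, at -2.65 ± 0.68, or -3.66 without null replicate 2, -2.01 without null replicate 3 and -1.30 with normexp. Interferon and antigen presentation genes had 7 higher and 6 lower of 18. B2m, the light chain of class I antigen complexes, read -0.34, 0.99 and -0.08 in Nat1-null LIF and 3.06, 2.93 and 3.03 in wild-type 2i+LIF, 7.06-fold lower (difference -2.82 ± 0.30, limma adjusted p = 4.5e-05). Null replicate 2 was closest to 2i for B2m as well, and the peptide transporter Tap1 was at least 1.53-fold lower (difference -1.20, or -0.51 with normexp). Irf1, an interferon-regulated factor, was higher by 1.32 ± 0.07.

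Among bright genes of any function, well above background on all 6 arrays, the largest differences above 0 were those of Islr2, Spry4, Oas2, Lhx5, Gsg1, Lef1, Kifc3 and Scgb3a1. Islr2, a membrane protein of developing neurons, read 5.42, 5.02 and 5.44 in Nat1-null LIF and 0.85, 0.87 and 0.89 in wild-type 2i+LIF. It was 21.5-fold higher (difference 4.42 ± 0.16, limma adjusted p = 5.1e-08). Oas2, an antiviral oligoadenylate synthetase, read 2.39, 1.85 and 2.42 in Nat1-null LIF and -1.94, -1.65 and -1.98 in 2i, a difference of 4.07 ± 0.21 (limma adjusted p = 4.1e-07). Lhx5, a LIM homeobox factor, was higher by 3.98 ± 0.22 (2.85 with normexp), the kinesin Kifc3 by 3.76 ± 0.14, Gsg1 by 3.96 ± 0.19 (2.75 with normexp) and the secretoglobin Scgb3a1 by 3.71 ± 0.40 (2.58 with normexp). The largest differences below 0 were those of Crxos, Snrpn, Plagl1, Zscan4c, Cdx1, Zscan4a, Klhl13 and Zscan4f. Crxos, a homeobox gene of early embryos, read -2.06, -1.24 and -2.09 in Nat1-null LIF and 3.77, 3.71 and 3.64 in wild-type 2i+LIF. It was 45.4-fold lower (difference -5.50 ± 0.20, limma adjusted p = 5.4e-08), and its 3 probes ranged from -6.44 to -0.22 with a mean of -4.06. Klhl13, a ubiquitin ligase adaptor, read -1.16, -0.60 and -1.07 in Nat1-null LIF and 3.48, 3.47 and 3.42 in 2i, a difference of -4.40 ± 0.14 (limma adjusted p = 3.7e-08).

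Where the lower group gave no clear signal, only a bound can be given. At least 10.4-fold higher was Gna14, a G protein alpha subunit, followed by Tnfsf11 (RANKL) at 9.84, the aspartic protease Napsa at 9.7, the axonemal gene Spag6l at 9.21 and Gfod1 at 8.64. At least 12.8-fold lower was Rasgrp1, an activator of Ras, followed by Pramel6, Bst1 (an ADP-ribosyl cyclase) at 9.38, the serine protease Tmprss5 at 8.98 and Tmem47 at 8.78. Rasgrp1 read -1.15, -1.45 and -1.57 in 2i, above its wild-type LIF mean of -3.25. Bst1 was likewise above wild-type LIF in 2i, by 0.90, and its difference of -5.35 was -3.51 as the mean of its probes. All 10 were chosen among genes that passed limma, and their limma adjusted p lay between 3.7e-08 (Rasgrp1) and 0.00039 (Gfod1). With normexp their differences were smaller, for example 1.59 against 4.02 for Gna14 and -2.35 against -5.32 for Rasgrp1.

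The states also lay on opposite sides of wild-type LIF for some bright genes. Above wild-type LIF in Nat1-null LIF and below it in 2i were Spry4, Lef1, Lhx5, Scgb3a1 and Slc26a10. Slc26a10, of an anion transporter family, read 0.72, 0.87 and 0.70 in Nat1-null LIF, -2.86, -3.01 and -2.78 in wild-type 2i+LIF and -0.83, -1.03 and -1.06 in wild-type LIF. Its difference between the states was 3.64 ± 0.09 (limma adjusted p = 1e-08, 3.04 with normexp). Below wild-type LIF in Nat1-null LIF and above it in 2i were Crxos, Plagl1, Patl2, Aurkc and Nqo1. Patl2, an oocyte RNA-binding protein, read -1.51, -1.82 and -1.83 in Nat1-null LIF, 1.76, 1.63 and 1.64 in wild-type 2i+LIF and -0.23, -0.21 and -0.28 in wild-type LIF, a difference of -3.40 ± 0.09 between the states (limma adjusted p = 1.3e-08). Aurkc, the meiotic Aurora kinase, was at -1.47 and 1.54 against wild-type LIF in the order null and 2i. Nqo1, a quinone reductase of the antioxidant response, was at -1.36 and 1.34, with a difference of -2.71 ± 0.13 between the states (limma adjusted p = 3.6e-07). Wild-type LIF lay between the groups in these genes because the rule took only genes called on opposite sides of it. The arrays of the groups did not overlap, which that rule favours.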

How the data were processed

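Total RNA of 12 samples was hybridised in 1 colour (Cy3) to Agilent mouse arrays, 3 per group. The deposited series table holds log2 values relative to the 75th percentile of each array, as found from the values, and the deposited scanner files hold spot intensity and background flags, made with Agilent Feature Extraction 10.7.3.1 per the file headers. Each array's series values matched the log2 processed intensity of its scanner file minus its 75th percentile. Control spots were left out. A probe needed a spot not flagged as an outlier on each of the 12 arrays, which held for 54229 of 55681 probes. Of these, a probe was kept if any of the 4 groups had it well above background on its 3 arrays, which left 33286. The probe with the highest mean over 12 arrays stood for a gene, which gave 24457 genes, 15422 with a symbol. Symbols came from the RefSeq annotation of GRCm38.p6. All 4 groups entered 1 limma fit (version 3.58.1, R 4.3.3), with Benjamini-Hochberg adjustment over all genes and a threshold of 0.05. Figures and counts used Python 3.11.15 with pandas 2.3.3, numpy 2.4.6 and matplotlib 3.10.9. Tested on simulated data, the fit recovered 20, 39, 47 and 50 of 50 genes at log2 differences of 0.5, 1, 2 and 3, with 11 false calls. The simulation gave all groups the same spread per gene, changed few genes and had no slides. In the data the null arrays scattered more and 51.8% of genes were called. The 11 false calls therefore do not give the error rate in the data.

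The labels do not say whether numbered samples came from separate lines or cultures, so p-values reflect only how these samples scatter, which may be technical. The rule for named genes took a fixed set of signalling, pluripotency, lineage and stress genes whatever their values. Its other genes all had to be called. They were the 8 bright genes of largest difference in each direction whose groups did not overlap, and the 5 of largest bound. Further ones were the 4 called members with the largest difference in a list. The last were 5 per direction on opposite sides of wild-type LIF, called in both comparisons with it. Other list members were named after their values were seen, and the values of 2 genes are not reported here. Members, lists and rules were chosen with earlier results of these data known. For a gene not well above background on any array of a group, the bound is the mean of the bright group against, per array, the lowest signal well above background or the gene's own, if higher. The alternatives were other scalings, normexp background correction, other filters, the mean of a gene's probes, other variance models, a replicate block, the 6 arrays alone and each array left out in turn.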

Additional observations from a re-analysis of the deposited data

How the results depend on the processing

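Of 158 genes chosen by the rule for named genes, 129 kept direction and side of the threshold under each of the 25 alternatives that gave them a value, 12 of which leave out an array. The filter to genes bright on all 6 arrays gave a value for 126 of the 158, and that to genes bright in at least 1 group for 155. Of 77 other list members named, 52 kept both in the same way. Leaving out 1 array gave 11043 to 13320 called genes. Other counts within 1.5 times of the reported one included 12294 with quantile normalization (50.7% higher), 10830 with the 6 arrays alone and 11408 with array weights.

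Without scaling, 12780 genes were higher and 2495 lower, 2963 and 1173 of them by at least 2-fold. Normexp background correction gave 1789 genes at least 2-fold different, 735 higher and 1054 lower, and the genes bright on all 6 arrays gave 2081 and 1087 lower. Without scaling the sign turned for Cox4i1 (0.0068), Uqcrb (0.0886), Canx (0.27), Ccnb1 (0.34), Cdk1 (0.37), Eif4g1 (0.29), Fgfr1 (0.16), Mapk3 (0.0526), Uhrf1 (0.11) and Znrf3 (0.32), each by the shift common to all genes. Without Nat1-null LIF replicate 2, genes that had not passed did so for Pou5f1 (0.34), Dnmt3b (0.50), Etv5 (0.35), Notum (0.47), Ddit3 (-0.43), Lefty2 (-0.44), Magel2 (0.44) and Ndn (-0.48). The cause of these changes was not tested beyond the common shift.

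A replicate block, with the number in the labels as a block, gave 12409 called genes and ended no call of a gene named by the rule. Deviations of same-numbered samples correlated at -0.07 to 0.04 between the 2 groups compared, so the numbers were not taken as pairs. Over all groups, 1 of 18 pairs was above 0.1 (0.30), that of replicate 2 of Nat1-null LIF and of Nat1-null 2i+LIF. This Nat1-null LIF array was at -0.21 and -0.11 with Nat1-null 2i+LIF replicates 1 and 3. Whether the numbers mark shared cultures among the null samples was not tested. Signal over background limits what can be read of dim genes, and bounds in place of differences were given for those not above background in a group.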
